A study of Mus musculus with 6 samples.

Results

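The Hippo pathway and its effectors YAP and TAZ were described in mouse embryonic stem cells through 10 genes chosen by name: the coactivator genes Yap1 and Wwtr1, the transcription factor genes Tead1, Tead2 and Tead4, the kinase genes Lats1 and Lats2, and the regulators Amotl2, Ajuba and Amot. All 10 were found among the 27179 gene identifiers of the count table, and all 10 passed the filter on low counts that left 14199 genes for testing. The genes were listed by their place in the pathway, with earlier results of these data known. Poly(A)-selected RNA was sequenced from 2 groups of cells of the E14TG2a background, a mouse embryonic stem cell line, grown in 2i medium with leukemia inhibitory factor. The 2 inhibitors in that medium, PD0325901 and CHIR99021, act on MEK and GSK3 and were present in both groups. The R783H group carried FLAG-tagged Trim71 with the R783H change and the WT group carried FLAG-tagged Trim71 without it, with 3 libraries each, lettered A, B and C. Trim71 binds mRNAs, and the series title names R783H as a cause of hydrocephalus. Whether the letters are clones, cultures or library preparations is not stated, so p-values measure the spread between these libraries, which may be technical.

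In the Hippo pathway, the MST kinases with their scaffold Sav1 activate the LATS kinases with their Mob1 partners, and the LATS kinases phosphorylate YAP and TAZ. The phosphorylated coactivators are held in the cytoplasm or degraded, whereas the unphosphorylated forms enter the nucleus and act on genes through the DNA-binding TEAD proteins. Lats2 and Amotl2 are themselves known as genes that YAP and TAZ activate and whose products restrain them, and in the early mouse embryo Tead4 with YAP is known for its part in forming the trophectoderm.

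TEAD proteins bind the letters CATTCC, and the windows below are shown because 4 of the members hold that word in the stretch before an annotated start of their own. Promoter windows were the 250 bases before a start in RefSeq's annotation of GRCm38.p6, and 8 of the 10 members had one. CATTCC or its reverse complement GGAATG was found in the windows of Yap1, Wwtr1, Amotl2 and Ajuba, and not in those of Lats1, Lats2, Tead2 and Amot. Among the 27025 genes of that table, 14.4% had the word in at least 1 window. Capitals mark the word, and each sequence is written 5′ to 3′ on the strand of the gene.
Ajuba, minus strand of chr14:54577662-54577911: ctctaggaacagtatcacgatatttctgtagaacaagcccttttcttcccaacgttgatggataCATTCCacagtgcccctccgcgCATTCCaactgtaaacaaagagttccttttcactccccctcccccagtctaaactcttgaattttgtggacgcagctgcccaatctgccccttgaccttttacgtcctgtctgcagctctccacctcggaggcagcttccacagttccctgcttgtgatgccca
Wwtr1, minus strand of chr3:57575911-57576160: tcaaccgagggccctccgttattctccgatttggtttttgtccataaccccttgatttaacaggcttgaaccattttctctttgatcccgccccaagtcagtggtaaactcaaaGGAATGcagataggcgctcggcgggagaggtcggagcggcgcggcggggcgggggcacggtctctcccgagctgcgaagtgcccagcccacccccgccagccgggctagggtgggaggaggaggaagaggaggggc
Yap1, minus strand of chr9:8004720-8004749: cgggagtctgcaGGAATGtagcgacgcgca
Amotl2, plus strand of chr9:102717727-102717756: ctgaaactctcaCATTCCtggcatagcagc
Ajuba held the word at 2 places, beginning 186 and 164 bases before its start. The others held it once, at 136 bases in Wwtr1, 141 in Yap1 and 65 in Amotl2. Wwtr1 has another annotated start, not shown, before which the same site begins at 170 bases. The Amotl2 window precedes an internal start of that gene, and its match lies in a 5′ UTR exon of longer transcripts in GENCODE M21, whereas the Yap1 match lies outside the transcripts annotated there. The Amot window (chrX:145487640-145487889) lies inside its gene (chrX:145446424-145505966), so the stretch before the outer start of Amot was not searched. A match describes these letters and is no evidence of binding.

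Total counts ran from 20894277 to 29079670 per library, the 3 R783H libraries all being deeper than the 3 WT libraries. Counts were scaled to library size as CPM with TMM factors, and a gene was called where edgeR's quasi-likelihood test gave a Benjamini-Hochberg adjusted p under 0.05 over all tested genes. Fold changes are log2 of R783H over WT with their standard error (SE), and ± marks the SD of 3 libraries. R783H B stood furthest from its group: a chi-square of counts per degree of freedom was 10.6 against A and 11.6 against C, and 2.12 between A and C. Trim71 itself was not called, with 143.7 ± 12.8 CPM in the R783H group and 140.5 ± 16.4 CPM in WT (adjusted p 0.743). Gene counts do not read the R783H change itself, so they do not check the labels, and an exon of Trim71 is shared with C130032M10Rik on the other strand. Fold changes can move with transcript length, so a fit with an offset for length and GC content was run beside each result. The cause of any such trend was not tested. With that offset Trim71 changed by -0.25 and was called (adjusted p 0.00367).

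Of the 10 members 7 were called, against 64.5% of all tested genes, so the share was near that of the table as a whole. Tead1, Lats1, Lats2 and Wwtr1 rose, where 33.5% of all tested genes were called higher, and Tead2, Ajuba and Amot fell, where 30.9% were called lower. Yap1, Tead4 and Amotl2 were not called. For 9 members the R783H and WT libraries were fully separated in CPM, against 68.1% of tested genes. The median log2 fold change of the 10 members was 0.04 and that of all tested genes 0.03. Every called member changed by less than 2-fold.

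**Figure D1:**
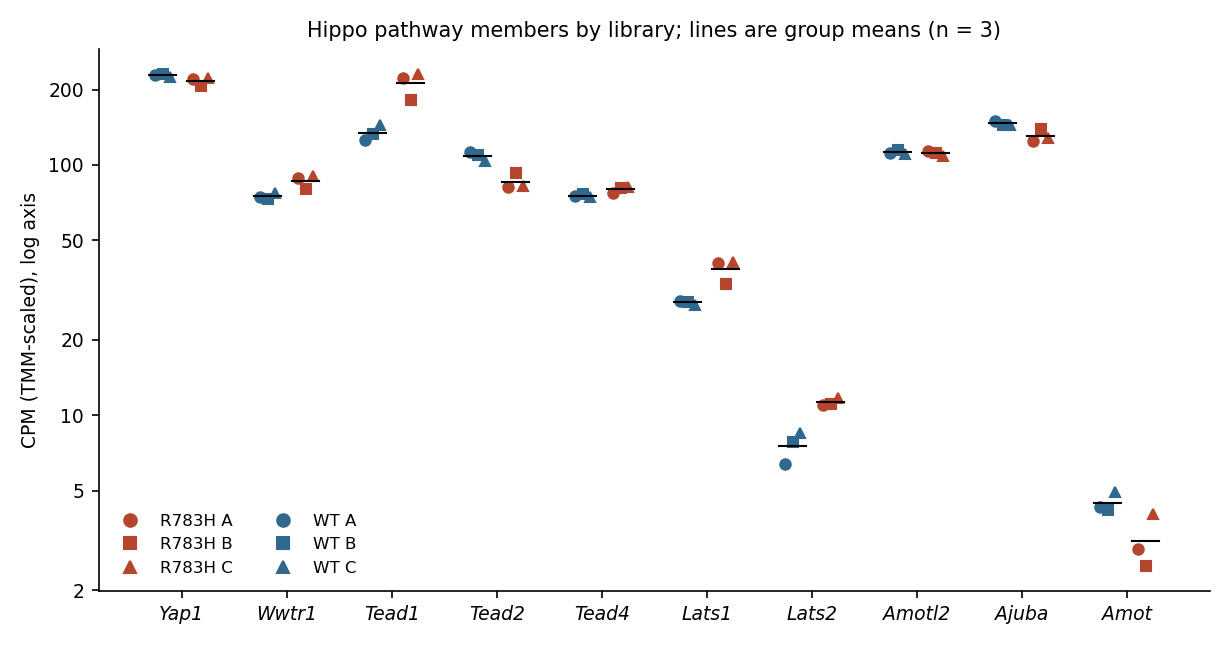
CPM of the 10 members in each library on a log axis, with WT in blue, R783H in red, a marker shape for each replicate letter and a line at each group mean. Tead1, Lats1 and Lats2 lie higher in all 3 R783H libraries, Tead2 lies lower, and Yap1, Tead4 and Amotl2 sit close to their WT levels.

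Yap1 encodes the coactivator YAP (Entrez 22601, chr9:7931999-8004638, minus strand). R783H A, B and C had 221, 207 and 223 CPM, and WT A, B and C had 228, 231 and 224 CPM. The R783H libraries lay just under the WT libraries without overlap, but the log2 fold change was -0.07 (SE 0.04) and was not called (adjusted p 0.184). Offsetting length and GC gave -0.13, which was called (adjusted p 0.00677), while scaling by library size alone turned it to 0.01. An exon of Yap1 overlaps Gm20416 on the other strand, and since the use of strand in counting is not given in the sources used here, reads of the pair cannot be told apart.

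Wwtr1 encodes TAZ, the paralog of YAP (Entrez 97064, chr3:57455644-57575910, minus strand). Its R783H libraries (A, B, C) held 88.8, 80.2 and 90.7 CPM, its WT libraries 74.4, 72.8 and 77.2 CPM. All R783H libraries lay above all WT libraries, with B the nearest to them. It rose by 0.21 (SE 0.06, adjusted p 0.00639), and by 0.11 when length and GC were offset, and all 17 alternatives called it.

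The balance of the 2 coactivator mRNAs was also read within each library, where no scaling between libraries enters. Per transcript length, Wwtr1 stood at 0.357, 0.344 and 0.361 of the Yap1 level in the R783H libraries and at 0.289, 0.28 and 0.306 in WT. The groups did not overlap (exact permutation test, two-sided, p = 0.1, the smallest that 3 against 3 libraries allow). This ratio was 1 of 8 within-library quantities computed after the fold changes were known, and the smallest p adjusted over the 8 exact permutation tests was 0.16.

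The TEAD genes moved in opposite directions. Tead1 (Entrez 21676, chr7:112679356-112906784, plus strand) encodes a TEAD protein found in many tissues. Its R783H libraries (A, B, C) held 222, 181 and 231 CPM, its WT libraries 126, 133 and 144 CPM. Every R783H library was higher, R783H B by the least. It rose by 0.65 (SE 0.08, adjusted p 3.83e-05), or 1.57-fold. Without R783H B it was 0.73. Tead1 has the longest transcript of the members (9964 nt), and with the length and GC offset its rise was 0.34, still called (adjusted p 1.25e-05).

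Tead2 (Entrez 21677, chr7:45215792-45233468, plus strand) encodes the TEAD protein known for its expression in early embryonic cells. Its R783H libraries (A, B, C) held 81.7, 93.1 and 82.1 CPM, its WT libraries 113, 110 and 104 CPM. R783H B was again the nearest to WT, and the groups did not overlap. The log2 fold change was -0.35 (SE 0.06, adjusted p 0.000364), moving to -0.43 without R783H B and to -0.30 once length and GC were offset. An exon of Tead2 overlaps Cd37 on the other strand, so reads of that pair cannot be told apart either.

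Tead4 (Entrez 21679, chr6:128227143-128300813, minus strand), the TEAD gene of the trophectoderm, measured 77.2, 81.2 and 81.6 CPM in R783H and 74.9, 76.3 and 74.2 CPM in WT. The groups lay close together without overlap. Its log2 fold change of 0.09 (SE 0.05) was not called (adjusted p 0.109). Offsetting length and GC gave 0.16 and library size alone 0.17, both past the threshold. Tead3, which completes the family and was not a member, rose by 0.53 (SE 0.10), with 4.99 ± 0.153 CPM in WT and 7.21 ± 0.291 CPM in R783H.

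Within each library, the share of each TEAD mRNA in the family total was computed per transcript length. Tead1 took 30.2%, 24.4% and 30.4% of the total in the R783H libraries and 17.6%, 18.5% and 20.3% in WT. Tead2 took 32.5%, 36.7% and 31.6% in R783H and 46.1%, 44.8% and 43.1% in WT. Both shares separated the groups without overlap, whereas the Tead4 shares overlapped, at 34.6% ± 0.70 in R783H and 34.0% ± 0.22 in WT. Tead1 stood at 0.85 ± 0.16 of the Tead2 level in R783H and 0.422 ± 0.045 in WT (exact permutation test, two-sided, p = 0.1, the smallest possible). The ratio and the shares were computed after the fold changes were known, and the ratio's p adjusted over all the exact permutation tests was 0.16. These shares carry no length offset, and the transcript used for Tead1 is far longer than that of Tead2 (3396 nt).

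**Figure D2:**
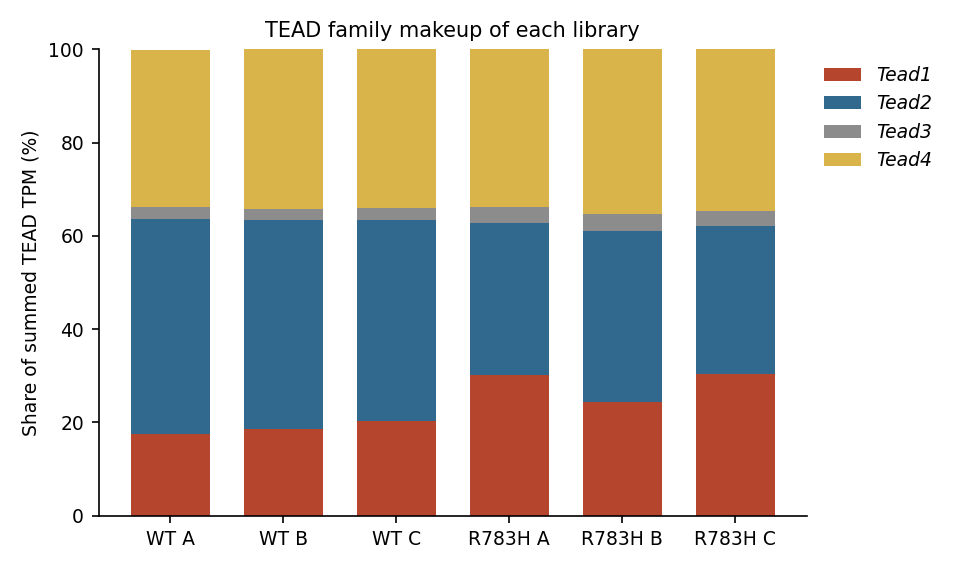
Stacked bars of the share of each TEAD mRNA in the summed TPM of Tead1 to Tead4, one bar per library. Tead1 takes 17.6% to 20.3% in the WT bars and 24.4% to 30.4% in the R783H bars, Tead2 takes correspondingly less, and Tead4 stays near 34%.

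Both LATS kinase genes rose. Lats1 (Entrez 16798, chr10:7681200-7716461, plus strand) had 40.5, 33.5 and 41.0 CPM in its R783H libraries (A, B, C), and 28.7, 28.4 and 27.7 CPM in the WT ones. The WT libraries were nearly level and all R783H libraries lay above them, B the least. Lats1 rose by 0.44 (SE 0.08, adjusted p 0.000488), and 0.50 without R783H B. Offsetting length and GC gave 0.19, still called (adjusted p 0.0062), so the size of the rise in Lats1, whose transcript has 7209 nt, depended on that offset.

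Lats2 (Entrez 50523, chr14:57689662-57746212, minus strand) was the less abundant kinase gene, with 330, 315 and 346 counts in the R783H libraries (A, B, C) and 129, 191 and 181 in the WT ones. These corresponded to 11, 11.1 and 11.7 CPM against 6.39, 7.79 and 8.48 CPM. The R783H libraries were close to each other and above all WT libraries, of which A was the lowest. The log2 fold change was 0.57 (SE 0.10, adjusted p 0.000554), and it ran from 0.44 to 0.66 over 17 alternatives, all of which called it. Lats2 shares exon sequence with the annotated gene Gm49361 on its own strand, so its counts are uncertain to the extent that such reads were split or dropped. The ratio of Lats2 to Lats1 per transcript length overlapped between the groups, at 0.411 ± 0.044 in R783H and 0.372 ± 0.059 in WT (exact permutation test, two-sided, p = 0.5). That ratio carries no length and GC offset, under which the log2 fold changes were 0.19 in Lats1 and 0.44 in Lats2.

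The junction and actin-linked regulators among the members, Amotl2, Ajuba and Amot, did not rise. Amotl2 (Entrez 56332, chr9:102717091-102733418, plus strand) encodes an angiomotin-family protein that binds YAP. It measured 114, 112 and 109 CPM in R783H and 112, 115 and 111 CPM in WT, ranges that overlapped in part, with a log2 fold change of -0.01 (SE 0.04, adjusted p 0.802). None of its 17 alternatives gave a call, and they ran from -0.05 to 0.07.

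Ajuba (Entrez 16475, chr14:54567469-54577661, minus strand) encodes a LIM-domain protein that binds and inhibits LATS kinases. Its R783H libraries (A, B, C) held 125, 139 and 128 CPM, its WT libraries 150, 145 and 144 CPM. The groups did not overlap, and R783H B came nearest to WT. The log2 fold change was -0.17 (SE 0.05, adjusted p 0.0112). It was -0.23 without R783H B. With length and GC offset it was -0.12, still called (adjusted p 0.00584). Scaling by library size alone brought it to -0.09, where it was not called (adjusted p 0.125).

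Amot (Entrez 27494, chrX:145446424-145505966, minus strand) encodes angiomotin, which tethers YAP at junctions. It was the least abundant member, with 88, 71 and 120 counts in the R783H libraries (A, B, C) and 87, 103 and 105 in the WT ones. CPM values were 2.93, 2.50 and 4.05 in R783H against 4.31, 4.2 and 4.92 in WT, with R783H C close to the WT libraries. The log2 fold change was -0.50 (SE 0.17, adjusted p 0.0257). With length and GC offset it was -0.72 and called (adjusted p 0.000743). The call was lost without R783H A (adjusted p 0.0624), without WT C (adjusted p 0.087) and with library size alone (adjusted p 0.0573), over alternatives in which the adjusted p ran from 0.000222 to 0.087.

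**Figure D3:**
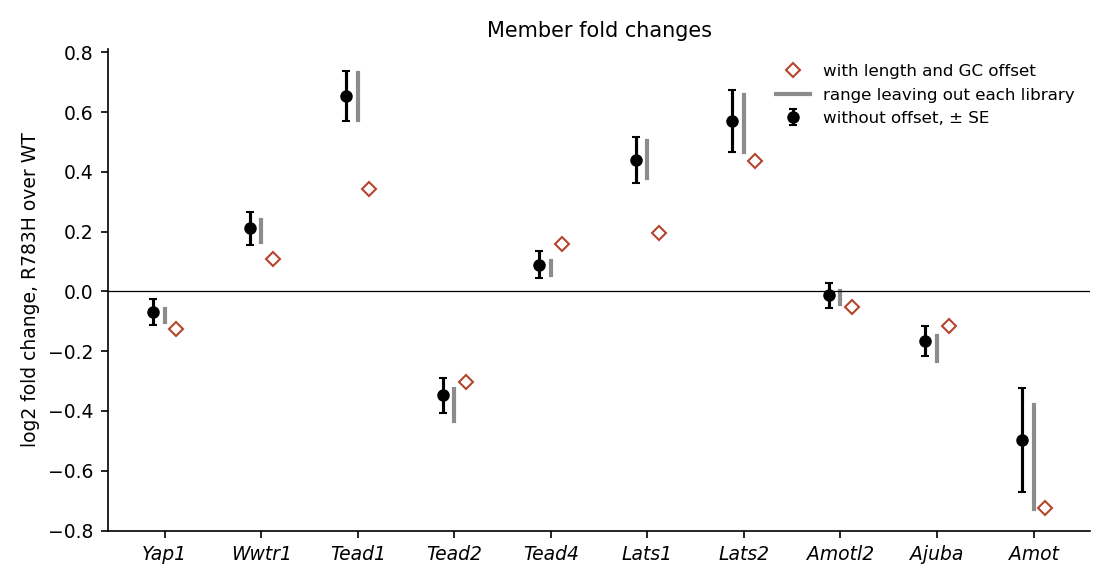
Log2 fold change of each member (black points with SE bars), its range when each library was left out (grey lines) and its value with the length and GC offset (open diamonds). The offset lowers the rises of Tead1 (0.65 to 0.34), Lats1 (0.44 to 0.19) and Wwtr1 (0.21 to 0.11), and all of these stay above 0. It deepens the fall of Amot (-0.50 to -0.72).

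Levels of different members were compared per transcript length, as TPM (each library's length-scaled counts set to 1 fixed total), within each group. In WT the order was Yap1 (126 ± 1.38), Ajuba (99.7 ± 1.02), Tead2 (74.2 ± 2.20), Amotl2 (60.2 ± 1.05), Tead4 (56.5 ± 0.807), Wwtr1 (36.8 ± 1.46), Tead1 (31.2 ± 2.39), Lats1 (9.07 ± 0.0569), Lats2 (3.37 ± 0.514) and Amot (1.49 ± 0.146). No neighbours in that order overlapped between libraries. In R783H Yap1 and Ajuba were again the highest and Lats1, Lats2 and Amot the lowest, without overlap. Between them Tead4, Amotl2 and Tead2 overlapped as neighbours at 65.7 ± 1.90, 65.3 ± 2.00 and 63.7 ± 3.20 TPM, and so did Tead1 (53.8 ± 7.93) and Wwtr1 (46.6 ± 4.09). Tead1 thus stood under Wwtr1 in WT and beside it in R783H. TPM was used for order and ratios only, since its scale rests on the lengths of all transcripts counted.

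Of 14 genes of the core kinase cassette 6 rose and 1 fell, with a median of 0.13, so that 50% were called against 64.5% of all tested genes. The 1 that fell was Stk4, which encodes the kinase MST1, at -0.21 (SE 0.05, adjusted p 0.00265), and it was named after its value was seen. The largest rises were in Taok3 (0.89, SE 0.08; 12.9 ± 0.626 to 23.9 ± 1.57 CPM) and Taok1 (0.55, SE 0.11), which encode TAO kinases that activate MST kinases. Mob1a, which encodes a LATS cofactor, rose by 0.44 (SE 0.09), and Map4k3, a kinase that can phosphorylate LATS, by 0.26 (SE 0.06). Offsetting length and GC left Taok1 at 0.14, and the list then had 5 higher and 3 lower.

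Among 21 upstream scaffold and polarity genes, 20 were tested, of which 9 rose and 3 fell, with a median of 0.10 and 60% called, under the share of the table. Patj and Crb3, which encode proteins of the apical Crumbs complex, rose the most of any gene in the pathway lists. Patj went from 5.48 ± 0.657 to 17.2 ± 0.841 CPM (log2 fold change 1.65, SE 0.10), a 3.15-fold rise. Crb3 went from 6.88 ± 0.568 to 18.1 ± 1.26 CPM (1.39, SE 0.09). Wwc2 (0.60, SE 0.05) and Wwc1 (0.39, SE 0.05), which encode KIBRA-family scaffolds that promote LATS activation, rose as well. With the length and GC offset 7 genes of the list were higher and 7 lower, the median turned to -0.05, and the rise in Wwc2 was 0.32.

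Of 15 genes for retention and turnover of YAP and TAZ, 5 rose and 7 fell, with a median of -0.03. The 80% called, against 64.5% of the table, was not tested as a difference, and the count ran from 10 to 13 over the alternatives. Of the 7 genes of the phosphoserine-binding Ywha family and Sfn, whose proteins hold phosphorylated YAP in the cytoplasm, 6 fell. Their log2 fold changes ran from -0.45 in Ywhaq (68.0 ± 2.40 to 49.7 ± 1.42 CPM) to -0.22, with Ywhab at -0.40 (SE 0.04; 328 ± 3.06 to 249 ± 2.83 CPM). Sfn was not called, with 46.2 ± 1.85 CPM in WT against 45.1 ± 3.27 CPM in R783H (adjusted p 0.659). When length and GC were offset, Sfn turned to 0.18 and was called higher. All 6 decreases were called in each of the 17 alternatives. Nedd4l (0.41, SE 0.05) and Nedd4 (0.37, SE 0.05), which encode ubiquitin ligases, rose, and with the length and GC offset these rises were 0.16 and 0.21. The count over this family and the split in the next paragraph were made after the values were seen. Over all tested genes 30.9% were called lower, and no difference from that share was tested.

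The STRIPAK complex joins PP2A phosphatase to MST kinases and counters them. Of its 17 genes 6 rose and 4 fell, with a median of -0.02 and 58.8% called, again under the table. The 4 that fell were the genes of the PP2A scaffold and catalytic subunits, all 4 of those listed, where 30.9% of all tested genes were called lower. The log2 fold changes of these 4 ran from -0.51 to -0.20, with Ppp2r1b at -0.51 (SE 0.04; 165 ± 4.83 to 116 ± 1.96 CPM). The 6 that rose were all among the other 13 genes, with Strip2 at 0.83 (SE 0.16), Slmap at 0.50 (SE 0.08) and Stk25 at 0.39 (SE 0.05). Under that offset 3 of the 4 PP2A genes were called lower, and of the 13 others 4 were higher and 1 lower. Exons of Taok1, Map4k3, Wwc2, Crb3, Stk25, Ppp2r1b, Ywhaq, Nedd4l and Ccn2 overlap genes on the other strand, whose reads cannot be told apart without strand. Among the cofactor genes (named here after their values were seen), Vgll3 and Vgll4, which encode Vestigial-like partners of TEAD proteins, were tested and not called, and Vgll1 and Vgll2 had at most 1 count in a library.

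**Figure D4:**
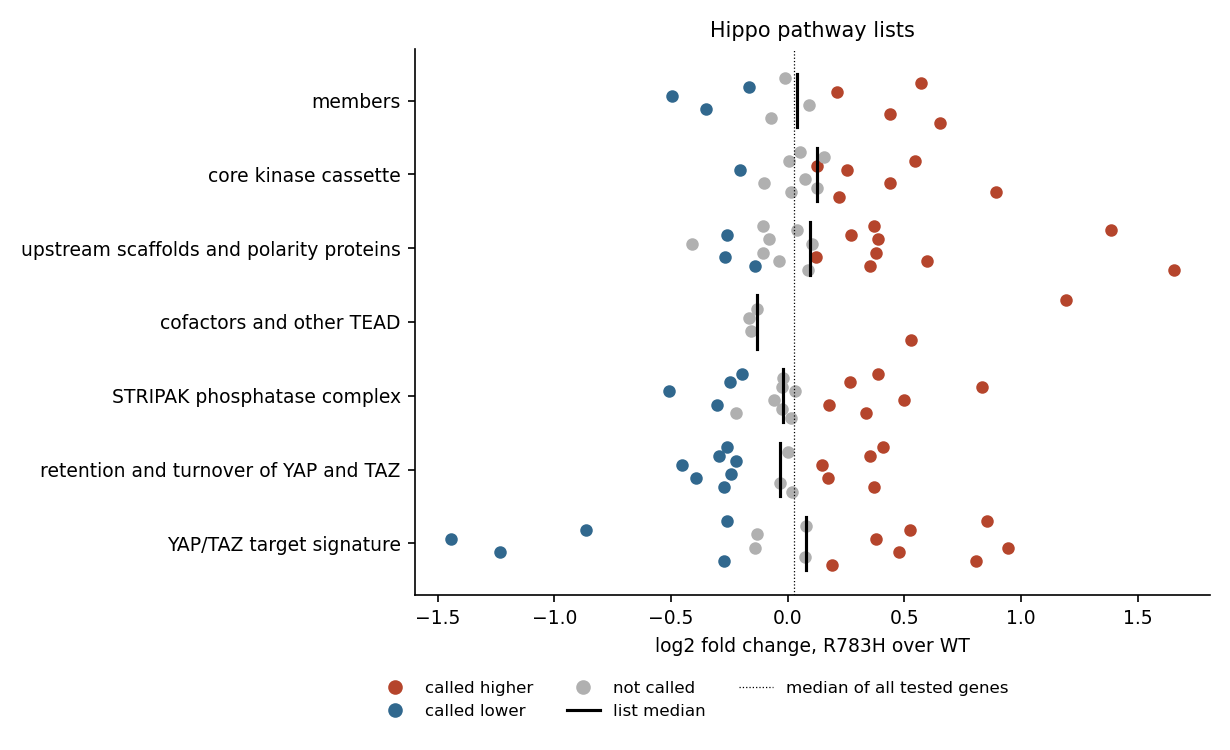
Log2 fold change of each tested gene in the member list and the pathway lists, colored by its call, with the list medians as vertical bars and the median of all tested genes (0.03) as a dotted line. Each list except the cofactors holds called genes on both sides of 0.

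Genes commonly used as a readout of YAP and TAZ moved in both directions. Of 20 such genes 16 were tested, 7 of which rose and 5 fell, with a median of 0.08 and 75% called against 64.5% in the table. Ccn1, which encodes a matricellular protein, changed from 21.8 ± 1.46 to 18.1 ± 0.638 CPM (log2 fold change -0.27, SE 0.07, adjusted p 0.00524). Ccn2, encoding its close relative, went the other way, from 22.4 ± 0.920 to 25.5 ± 1.76 CPM (0.19, SE 0.07, adjusted p 0.0311). The call for Ccn2 was lost with RLE factors, with DESeq2 and without R783H A, R783H B, WT B or WT C (adjusted p from 0.0582 to 0.119 in these 6 alternatives). Without R783H B it was 0.12, in the other 5 it lay between 0.17 and 0.18, and with length and GC offset it was 0.25 and called (adjusted p 0.00198). Ankrd1, the third gene of this common trio, had at most 2 counts in any library and was not tested.

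The largest changes among the targets were falls in Igfbp3 (5.01 ± 0.335 to 1.84 ± 0.119 CPM, log2 fold change -1.44, SE 0.13) and Nuak2 (7.24 ± 0.629 to 3.08 ± 0.257 CPM, -1.23, SE 0.12). They encode an IGF-binding protein and a kinase of the AMPK family. F3, the tissue factor gene, rose by 0.95 (SE 0.11), and Fjx1 fell by 0.86 (SE 0.07). All 4 kept their call and direction in the 17 alternatives. The summed CPM of the 20 genes was 585.1 to 606.2 in R783H libraries and 428.5 to 438.5 in WT libraries. Much of this sum was Myof, chosen after its values were seen, with 248 ± 4.77 CPM in R783H against 137 ± 1.62 CPM in WT, and without it the sums were 341.2 to 353.0 and 289.8 to 303.0. In promoter windows like those shown for the members, 5 of the 13 target genes with a window held CATTCC or its reverse complement. That was 38.5%, against 14.4% of all genes with a window, and no difference was tested. Ccn1 and Ankrd1 held the word, and Igfbp3, F3 and Myof did not.

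**Figure D5:**
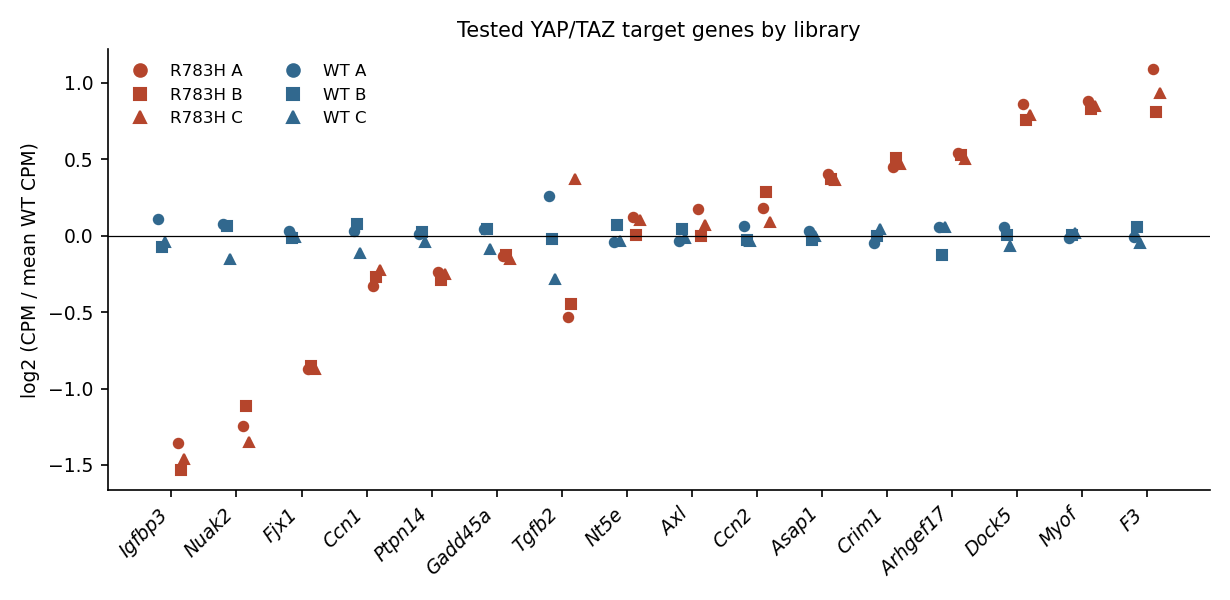
Log2 of CPM over the mean WT CPM for the 16 tested YAP and TAZ target genes in each library, ordered by fold change. Igfbp3, Nuak2 and Fjx1 lie far under the WT libraries, Dock5 (chosen, like Myof, after its values were seen), Myof and F3 far above them, and Ccn1 and Ccn2 lie on opposite sides of 0.

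Markers of the labelled and of other cell types were read in the same libraries. Of 10 naive stem cell markers all were expressed, with summed levels of 7597 to 7744 CPM in R783H and 7688 to 7769 CPM in WT, 3 called higher and 3 lower, of which Zfp42 at -0.36 and Dppa5a at 0.30 moved the most. The 10 trophoblast markers summed to 85.6 to 95.4 CPM in R783H and 121.2 to 121.7 CPM in WT. Of these Elf5, Krt7 and Hand1 stayed under 1 CPM in every library. Cdx2, known as a gene that Tead4 and YAP activate in the trophectoderm, fell (-1.70, SE 0.17; 6.04 ± 0.038 to 1.86 ± 0.516 CPM). Tfap2c fell as well (-1.24, SE 0.07; 23.8 ± 1.24 to 10.1 ± 0.159 CPM). Of the 7 trophoblast markers tested, 3 were called lower and 1 higher, which was Gata3 at 0.73 (SE 0.18, named after its value was seen). Gata3 had 24 to 75 counts per library, and its exons overlap 9230102O04Rik on its own strand and Gm13256 on the other. The 8 primitive endoderm markers summed to 271 to 280 CPM in R783H and 139 to 149 CPM in WT, mostly Lama1 (chosen after its values were seen), which rose by 0.94 (SE 0.05). Gata4 rose by 1.08 (SE 0.15) and Sox17 by 1.29 (SE 0.29), the latter at 1.01 CPM or less, and Gata6, Sox7 and Foxa2 stayed under 1 CPM in every library. Sox7 went the other way from Gata4 and Sox17, with 3, 2 and 4 counts in the R783H libraries and 15, 9 and 19 in the WT ones. The filter removed it, and the 5 alternatives that tested it called it lower. Of 10 fibroblast markers 5 stayed under 1 CPM in every library (Col3a1, Postn, Lum, Dcn and Twist2). The list summed to 49.96 to 56.49 CPM in R783H and 67.4 to 70.6 CPM in WT. Thy1 fell (-2.74, SE 0.35), with 2, 7 and 8 counts in the R783H libraries against 25, 34 and 28 in the WT ones. Fbln1 fell too (-0.50, SE 0.06). Pdgfrb rose (0.30, SE 0.09, named after its value was seen), and 12 of 17 alternatives called that rise. Called were 60% of the tested naive markers, 57.1% of the trophoblast, 50% of the primitive endoderm and 60% of the fibroblast markers. Over all tested genes the share was 64.5%, so no marker list stood above the table in share called. The median log2 fold change was 0.91 in the tested primitive endoderm, 0.0045 in the naive, -0.17 in the trophoblast and -0.45 in the fibroblast markers. That of all tested genes was 0.03. In bulk RNA, fewer cells of a type and less RNA per cell cannot be told apart, and the part of these markers in the changes above was not tested.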

How the data were processed

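The authors deposited 1 table of raw read counts per Entrez gene, with a column per library named for its alignment file, per the file headers. The submitters' processing notes name CASAVA 1.4, HISAT2, SAMtools and mm10; the counting tool, its annotation and its use of strand are not given in the sources used here. Symbols came from RefSeq (GRCm38.p6) and matched 25275 identifiers. Transcript lengths came from the longest protein-coding transcript in GENCODE M21, and exon overlaps and stretches of at least 98% identity over 100 nt were searched there.

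Counts were tested with edgeR 4.0.16 in R 4.3.3 (filterByExpr, minimum count 10, minimum total 15; TMM; group as the single term; glmQLFTest; Benjamini-Hochberg over 14199 genes). SE is the log2 fold change divided by the square root of F. In simulated counts for 14199 genes of this comparison, 90 of 100 changes of 2-fold and 82 of 100 of 1.5-fold were called, with 11 calls among unchanged genes. Only those genes were changed in the simulation, whereas 64.5% of tested genes were called in the data. Its rates may therefore not hold for the data. A floor of 3 counts equals 0.0998 to 0.149 CPM per library. The 17 alternatives were other scaling factors and filters, DESeq2 1.42.0, limma 3.58.1 (voom), a replicate block, each library left out, equal depth, and an offset fitted to transcript length and GC content. That floor covers counting error only, as reads carry no molecular identifiers.

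Members and lists were chosen with earlier results of these data known. Text names all members, Trim71, Ccn1, Ccn2, Ankrd1, up to 4 called genes per pathway list with the largest change and at least 1 CPM in the higher group, and, from each marker list, markers near 0 and up to 2 of the largest called changes. One gene that this rule names is not reported here.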

Additional observations from a re-analysis of the deposited data

How the results depend on the processing

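Over 17 alternatives the number of called members ran from 6 to 9 against 7, and of all called genes from 8161 to 9882 against 9152. Leaving out each library in turn gave 6 or 7 called members and 8161 to 9882 called genes. Tead1, Tead2, Lats1, Lats2 and Wwtr1 kept their call and direction in all 17. Library size alone moved the median of all tested genes from 0.03 to 0.11 and the share of higher calls from 52.0% to 61.2% of calls, with 5 members higher and 1 lower; it put Yap1 at 0.012 and Amotl2 at 0.068, neither called. Amotl2 was 0.0008 at equal depth and ran from -0.041 to 0.00 with each library left out. With the length and GC offset 5 members were higher and 4 lower, and Trim71 was -0.25, also with the replicate block. Whether the letters A, B and C pair the libraries is not stated, and with 3 libraries per group correlations cannot decide it. Deviations of same-lettered libraries from their group means correlated at -0.07, 0.00682 and 0.0851, and not every library correlated best with its own letter. The fit with the replicate block called 9260 genes and 7 members, against 9152 and 7 without it. The cause of these differences was not tested. Amot, the member with the fewest counts (71 to 120 per library), had the largest SE of the 10; whether depth sets it was not tested.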
